A study of Homo sapiens with 18 samples.

Results

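The oestrogen receptor gene ESR1, its partner factors FOXA1 and GATA3, and the target genes PGR, GREB1, TFF1, IGFBP4 and XBP1 were followed in the open chromatin of 6 human ovarian cancer cell lines. The members were the 1 kb windows of the ATAC-seq table that overlapped the annotated span of each of these 8 genes, extended by 20 kb on both sides. This gave 67 of the 89428 windows in the table. Of these, 13 overlapped the promoter of a member, from 1000 bases before to 100 bases after the start of a transcript, and 52 were distal. The remaining 2 lay over the start of E2F6, a neighbour of GREB1, and were counted apart. ESR1 held 23 windows, GREB1 15, FOXA1 10, GATA3 10, PGR 5, IGFBP4 2 and XBP1 2. TFF1 and the windows over the canonical starts of PGR and GREB1 were not analysed here.

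ATAC-seq marks open chromatin by the places where the Tn5 transposase inserts sequencing adapters. It was measured in 3 libraries of each line. The lines form 3 pairs of a line that is sensitive to platinum and a resistant partner: A2780 and CP70, PEA1 and PEA2, and PEO1 and PEO4. CP70 was derived from A2780 by selection in culture. A2780 and CP70 are labelled as endometrial/ovarian cancer cells. PEA1 and PEA2 came from the ascites of the same patient with high-grade serous ovarian cancer, before platinum and at a resistant relapse. PEO1 and PEO4 came from another such patient. Both PEO lines were taken after platinum-based chemotherapy, PEO1 before and PEO4 after resistance appeared in the clinic. All lines were grown in RPMI-1640 with glutamine and fetal bovine serum, and the labels give no drug or hormone treatment. Each group is therefore a single line, and patient, line and selection cannot be told apart. The labels do not say that the 3 libraries of a line came from separate cultures, so p-values measure only the spread between libraries, which may be technical.

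The oestrogen receptor is a transcription factor that oestradiol activates, and it binds DNA mostly at distal enhancers, at a palindrome called the oestrogen response element. FOXA1, a forkhead factor, opens compacted chromatin for the receptor, and GATA3 acts beside it in hormone-responsive epithelia. PGR, the progesterone receptor, and GREB1, a receptor cofactor, are classical targets whose expression is used as a readout of receptor activity, and many high-grade serous ovarian tumours express ESR1.

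Values are FPKM, which for windows of equal length is the number of reads of a window scaled to the reads of its library. The share of a library's reads that fell in the table differed between lines, and every FPKM moves with it. A2780 had 9.26% ± 0.832 of its reads in the table and CP70 13.1% ± 2.16 (SD, n = 3 libraries in each line here and below). PEA1 had 15.3% ± 2.12 and PEA2 18.9% ± 1.82, while PEO1 had 39.9% ± 0.949 and PEO4 34.4% ± 1.51. Library totals ran from 8963079 reads in PEO1 to 60435027 in A2780. Levels are therefore also given as a relative level, the FPKM of a window divided by the mean FPKM of its library over all 89428 windows. The table was also selected on its values, since all of its windows exceeded 2 FPKM in at least 2 libraries. Of the 67 member windows, 38 (56.7%) did so in PEO1 or PEO4 libraries alone, against 27607 (30.9%) of all windows. This was so for 17 of the 23 ESR1 windows and for none of the 2 XBP1 windows, so ratios, ranks and counts of windows that were higher in PEO1 and PEO4 describe a table that such windows entered through these lines. Where a window would have fewer than 2 libraries over 2 FPKM without the group in which it was higher, its log2 difference is given as a description with no p. Start windows of the epithelial markers EPCAM, KRT8, KRT18 and CDH1 and of PAX8, WT1 and SOX17, of the Mullerian and serous markers, were in the table. Of these 7, 6 were highest in PEO1 or PEO4 in FPKM. Of all 25376 promoter windows, PEO1 was highest in 11849 and PEO4 in 10138, so this count is near that share. On the relative scale PAX8 was highest in PEA1, at 2.01 against 1.77 in PEO1. CDH1 was highest in PEA2, at 1.15 against 1.06 in PEO4. EPCAM stood at 11.3 FPKM in PEO1 and 10.5 in PEO4 against 0.740 to 2.09 in the other lines. SOX17 was lowest in PEO1 and PEO4, at 0.721 and 0.661 FPKM against 2.33 in PEA2. KRT8 and KRT18 were lower in PEA2 than in PEA1, at 1.57 against 2.57 and 1.27 against 2.32 FPKM, and higher in PEO4 than in PEO1. The part of these markers in the results was not tested. The start windows of MUC16 and of 7 markers of blood, endothelium and fibroblasts were not analysed here.

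The mean level of the ESR1 windows in the table was higher in PEO1 and PEO4 than in the other lines, in promoter and in distal windows. The mean of its 4 promoter windows was 5.95 ± 0.540 FPKM in PEO1 and 4.93 ± 0.174 in PEO4. PEA2 followed at 1.37 ± 0.318, and its libraries did not overlap those of PEO4. CP70 stood at 0.652 ± 0.168 and PEA1 at 0.615 ± 0.182, with overlapping libraries, and A2780 was lowest at 0.382 ± 0.0518. On the relative scale the promoter level was 1.33 in PEO1 and 1.29 in PEO4, which overlapped, against 0.360 to 0.648 in the other 4 lines. The 19 distal windows averaged 7.40 FPKM in PEO1, 4.73 in PEO4 and 0.942 in PEA2, and between 0.269 and 0.574 in A2780, CP70 and PEA1. Their relative level was 1.66 in PEO1 and 1.23 in PEO4, whose libraries did not overlap, and 0.259 to 0.444 elsewhere. The level in PEO1 and PEO4 was 10.7 times that of the other lines in distal windows as deposited and 4.19 times on the relative scale. In promoter windows it was 7.20 and 2.84 times. Of the 23 ESR1 windows, 17 were in the table through PEO1 and PEO4 alone. These levels and ratios therefore describe in part what the table was selected on, and the relative scale does not remove this.

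**Figure D1:**
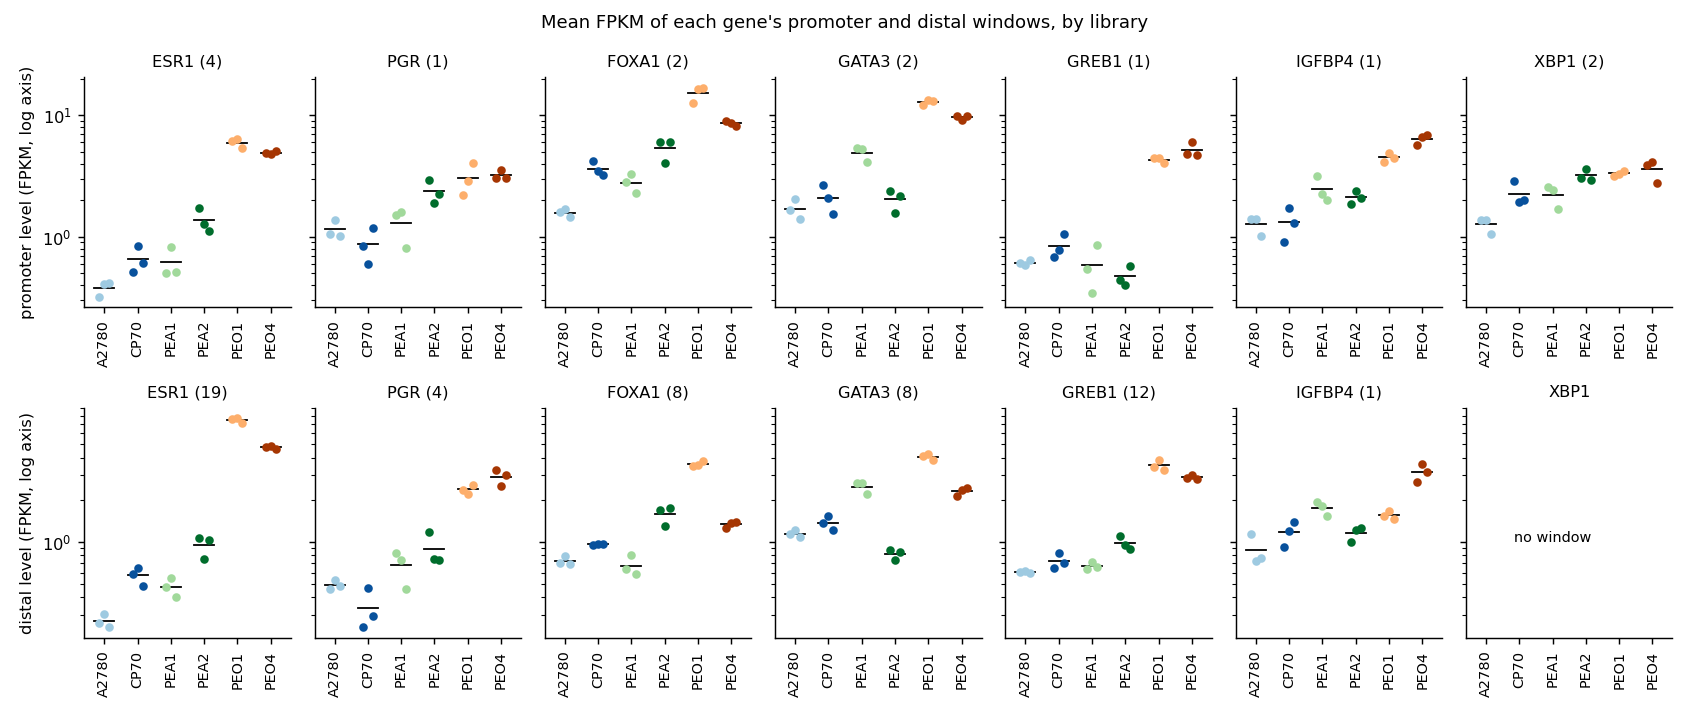
Mean FPKM of the promoter windows (upper row) and distal windows (lower row) of each gene, on a log axis, with a point for each library, a bar for the mean of each line, and the number of windows in brackets. The ESR1 points of PEO1 and PEO4 lie above those of the other 4 lines in both rows, with distal means of 7.40 and 4.73 FPKM against at most 0.942. Of the 23 ESR1 windows, 17 were in the table through PEO1 and PEO4 alone.

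The canonical ESR1 start (chr6:152128817, GRCh37, plus strand) lay in the window chr6:152128800-152129800, which also covered the first exon. The start is shown with its CpG sites in capitals, beside the start of XBP1, the member with the smallest ratio of PEO1 and PEO4 to the other lines, to set the letters of the starts side by side. The 300 bases of ESR1 hold 17 CpG sites at 58.3% GC, and those of XBP1 hold 40 at 68.7% GC. Both run from 250 bases before to 50 bases after the start on the strand of the gene, ESR1 at chr6:152128567-152128866 and XBP1 at chr22:29196508-29196807 on the minus strand.
ESR1 start: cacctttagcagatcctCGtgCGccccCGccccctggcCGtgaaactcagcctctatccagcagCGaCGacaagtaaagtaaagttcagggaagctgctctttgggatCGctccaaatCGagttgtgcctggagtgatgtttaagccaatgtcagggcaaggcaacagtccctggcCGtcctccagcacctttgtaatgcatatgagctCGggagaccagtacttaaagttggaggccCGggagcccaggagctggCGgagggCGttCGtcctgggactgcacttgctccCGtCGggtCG
XBP1 start: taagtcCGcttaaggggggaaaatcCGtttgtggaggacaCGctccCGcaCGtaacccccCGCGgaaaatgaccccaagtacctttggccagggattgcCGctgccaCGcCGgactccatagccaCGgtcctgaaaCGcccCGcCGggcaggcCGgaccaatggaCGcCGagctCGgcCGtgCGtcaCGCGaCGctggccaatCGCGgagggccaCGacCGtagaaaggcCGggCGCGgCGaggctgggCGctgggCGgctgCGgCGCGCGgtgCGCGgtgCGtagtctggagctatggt
The ESR1 start window held 0.558, 0.496 and 0.529 FPKM in the 3 libraries of A2780, 0.682, 1.08 and 0.879 in CP70, and 0.769, 1.25 and 0.719 in PEA1. It held 2.75, 2.25 and 1.73 in PEA2, 9.11, 9.95 and 7.13 in PEO1, and 6.16, 5.86 and 6.53 in PEO4. The libraries of PEA2 lay above all those of A2780, CP70 and PEA1, and those of PEO1 above all others. By limma, the window was higher in PEO1 and PEO4 than in the other 4 lines by a log2 fold change of 2.77 ± 0.140 (SE, adjusted p = 2.43e-26), and by 1.55 after each library was centred on its median. In PEA2 it was 1.23 ± 0.252 above PEA1 (limma, adjusted p = 3.61e-06), and 0.86 above after centring. The median over all promoter windows in that pair was -0.17 before centring. In PEO4 the start window was 0.48 below PEO1 on the log2 scale. The window just upstream, chr6:152127900-152128900, held 7.99, 8.20 and 8.36 FPKM in PEO1 and 7.38, 7.87 and 7.32 in PEO4, and at most 1.48 in any other library. PEO4 and PEO1 differed there by -0.12 ± 0.12 (limma, adjusted p = 0.398). The other promoter windows were lower. The window at -3.12 kb (chr6:152125200-152126200), over the first exon of another transcript, held 2.33, 2.09 and 2.34 FPKM in PEO1 and 3.55, 2.74 and 3.34 in PEO4, so that PEO4 was the higher of the pair. PEA2 held 1.59, 1.16 and 1.29 there, and no library of A2780, CP70 or PEA1 exceeded 0.606. In the window at 1.38 kb (chr6:152129700-152130700) PEO1 held 5.06, 5.32 and 3.57 FPKM, PEO4 2.50, 2.64 and 3.29, and no other library more than 1.10.

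Among the distal ESR1 windows, the highest lay in introns on both sides of the start. The window at 93.2 kb (distance of its centre from the canonical start, positive downstream, chr6:152221500-152222500) held 26.9, 26.3 and 21.4 FPKM in PEO1 and 17.0, 17.5 and 15.4 in PEO4. PEA2 held 2.20, 1.79 and 1.95 FPKM there, while A2780 held 0.227, 0.406 and 0.198, CP70 0.530, 0.778 and 0.461, and PEA1 0.256, 0.374 and 0.192. PEO1 and PEO4 lay above the other lines by 4.95 ± 0.141 on the log2 scale, or 3.73 after median centring, in a window that was in the table through these 2 lines. PEA2 was 2.50 ± 0.315 above PEA1 (limma, adjusted p = 1.98e-14), and 2.13 after centring, and no library of PEA2 overlapped PEA1. The window at -43.6 kb (chr6:152084700-152085700) held 18.7, 20.9 and 20.2 FPKM in PEO1 and 12.3, 12.5 and 11.4 in PEO4. CP70 held 1.74, 1.92 and 1.13 FPKM and A2780 0.924, 0.924 and 0.827, whereas PEA1 held 0.352, 0.467 and 0.192 and PEA2 0.385, 0.173 and 0.399. Here the A2780 pair lay above the PEA pair, the reverse of the order at 93.2 kb for PEA2.

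**Figure D2:**
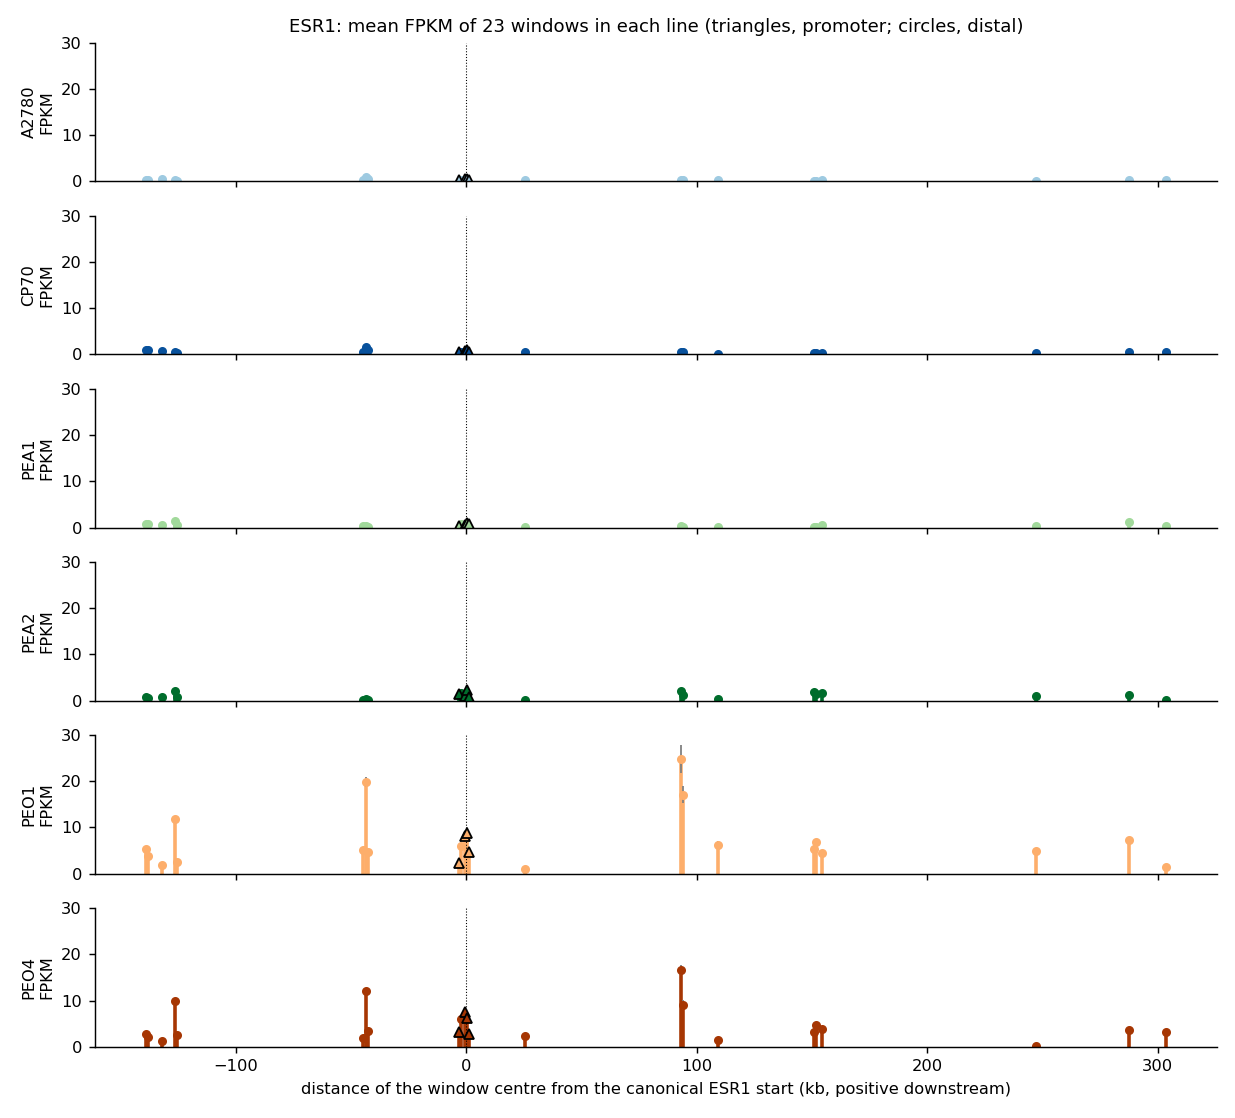
Mean FPKM of the 23 ESR1 windows against the distance of the window centre from the canonical start in kb, a panel per line on a shared axis, with triangles for promoter windows, circles for distal windows and grey bars for the SD over 3 libraries. PEO1 and PEO4 carry peaks along the span, and the windows at 109 and 247 kb that are present in PEO1 are low in PEO4.

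PEO4 did not hold all the ESR1 windows that PEO1 held. The intronic window at 247 kb (chr6:152375400-152376400) held 5.16, 4.62 and 4.79 FPKM in PEO1 and 0.174, 0.240 and 0.299 in PEO4. It held 1.21, 0.694 and 1.11 FPKM in PEA2, 0.224, 0.218 and 0.623 in PEA1, 0.152, 0.419 and 0.168 in CP70, and 0.105, 0.180 and 0.132 in A2780. PEO4 lay 3.89 ± 0.282 below PEO1 on the log2 scale in limma, and the log2 difference after centring was -3.55. The window at 109 kb (chr6:152237700-152238700) held 6.78, 6.63 and 5.35 FPKM in PEO1 and 1.34, 1.34 and 1.44 in PEO4, a log2 difference of -2.10 ± 0.181. Both windows were in the table through PEO1 alone. After centring the latter difference was -1.76, which misses the limit of 2. The 2 windows at -43.6 kb and 93.2 kb were lower in PEO4 by 0.72 and 0.57, near the all-window distal median of -0.48. Other distal ESR1 windows went the opposite way. Those starting at chr6:152154000 and chr6:152432100 were higher in PEO4 by 1.27 and 0.98 on the log2 scale, and by 1.61 and 1.33 after centring. Both were in the table through PEO4 alone.

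Stretches of 3 ESR1 windows are shown because they hold forkhead or GATA letters in windows that were high in PEO1. These windows were chosen for print after their values were seen, and capitals mark TGTTTAC or AGATAA on either strand. The window at -126 kb held 11.5, 12.6 and 11.1 FPKM in PEO1 and 9.30, 9.93 and 10.3 in PEO4, and at most 2.42 in any other library. Its stretch at chr6:152001889-152001993 carries both motifs. The stretch of the 247 kb window, which was low in PEO4, lies at chr6:152375658-152375724 and carries the forkhead letters. The window at 151 kb holds the GATA letters 4 times, of which the stretch at chr6:152279463-152279729 shows 3. All 3 are given on the plus strand.
ESR1, -126 kb: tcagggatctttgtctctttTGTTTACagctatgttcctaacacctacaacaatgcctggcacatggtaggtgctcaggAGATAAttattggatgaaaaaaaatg
ESR1, 247 kb: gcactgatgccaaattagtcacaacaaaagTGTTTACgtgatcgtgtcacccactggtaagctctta
ESR1, 151 kb: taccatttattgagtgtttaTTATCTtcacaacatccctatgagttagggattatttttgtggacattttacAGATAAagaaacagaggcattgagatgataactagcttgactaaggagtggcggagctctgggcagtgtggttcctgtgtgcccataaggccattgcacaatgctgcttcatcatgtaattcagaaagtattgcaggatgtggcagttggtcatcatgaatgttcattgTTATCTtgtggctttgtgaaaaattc

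PGR held 5 windows, and the level of its promoter window was not the highest in PEO1 and PEO4 once scaling was removed. That window (chr11:100998900-100999900) overlaps the promoter of another PGR transcript and does not reach the canonical start. The promoter window held 2.23, 2.88 and 4.01 FPKM in PEO1, 3.02, 3.55 and 3.04 in PEO4, and 2.91, 1.91 and 2.26 in PEA2. The libraries of PEO1 overlapped those of both, and all PEO4 libraries lay above all PEA2 libraries. It held 1.51, 1.59 and 0.815 in PEA1, 1.06, 1.37 and 1.01 in A2780, and 0.833, 0.599 and 1.17 in CP70. On the relative scale PEA2 and A2780 both stood at 1.11, above PEO4 at 0.832. PEA2 was above PEA1 by 0.84 ± 0.24 on the log2 scale (limma, adjusted p = 0.00107), under the limits used for a call. Deeper in the gene, the intronic window at 33.5 kb (chr11:100966500-100967500) held 3.54, 2.36 and 2.67 FPKM in PEO1 and 3.60, 2.69 and 3.99 in PEO4. No library of the other 4 lines exceeded 0.383 there, and the log2 difference was 3.36 ± 0.200, or 2.14 after centring, in a window that was in the table through PEO1 and PEO4 alone. At 2.04 kb (chr11:100998000-100999000), in an exon, PEO1 was highest in FPKM with 4.15, 4.97 and 6.46, and PEO4 held 3.37, 2.78 and 3.04. PEA1 held 2.53, 2.46 and 1.20 FPKM and PEA2 2.97, 2.25 and 2.04, and the A2780 pair 0.682 to 1.32. The log2 difference of PEO1 and PEO4 from the other lines at 2.04 kb was 1.37, and 0.15 after centring (limma, adjusted p = 0.325).

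Another intronic PGR window, at 38.9 kb (chr11:100961100-100962100), was open in PEO4 alone among the lines. It held 2.85, 2.11 and 2.09 FPKM in PEO4, and 0.304, 0.262 and 0.223 in PEO1. The other lines held 0.279, 0.270 and 0.331 in A2780, 0.152, 0.180 and 0.0838 in CP70, 0.288, 0.125 and 0.144 in PEA1, and 0.330, 0.116 and 0.266 in PEA2. PEO1 held 2 to 3 reads in each library there, so the fold rests on few reads. Over the 3 libraries PEO1 held 8 reads and PEO4 135, a ratio of read rates of 8.80 with a 95% exact interval of 4.34 to 20.8 that covers counting error only. The limma log2 difference was 2.75 ± 0.339. The window was in the table through PEO4 alone, so this difference describes what the table was selected on.

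FOXA1, which opens chromatin for the receptor, had the highest promoter level of the members in PEO1. Its 2 promoter windows averaged 15.3 FPKM in PEO1, 8.62 in PEO4, 5.39 in PEA2, 3.64 in CP70, 2.80 in PEA1 and 1.58 in A2780. PEA2 and CP70 overlapped, as did CP70 and PEA1. On the relative scale the order was PEO1 at 3.44, PEA2 at 2.54, CP70 at 2.50, PEO4 at 2.24, PEA1 at 1.64 and A2780 at 1.53, and CP70 libraries all lay above those of PEO4, while PEA2 libraries overlapped them. The window upstream of the start, chr14:38064600-38065600, held 1.06, 0.901 and 0.777 FPKM in A2780 and 2.35, 2.15 and 2.14 in CP70. It held 1.86, 2.21 and 1.92 in PEA1, 5.83, 4.05 and 6.43 in PEA2, 12.1, 14.4 and 15.8 in PEO1, and 7.56, 8.25 and 6.92 in PEO4. No library of a line overlapped its partner. By limma the window was 1.20 ± 0.253 higher in CP70 (adjusted p = 4.31e-05), 1.38 ± 0.228 higher in PEA2 (adjusted p = 6.55e-09) and 0.88 ± 0.12 lower in PEO4 (adjusted p = 5.95e-08). After centring these log2 differences were 0.62 in CP70, 1.01 in PEA2 and -0.54 in PEO4. The window over the start itself, chr14:38063700-38064700, was 1.12 ± 0.285 higher in CP70 (limma, adjusted p = 0.000782), and 0.54 higher after centring. The median over all promoter windows in CP70 was 0.59. The gene TTC6 overlaps the upstream windows, so their signal cannot be given to FOXA1 alone.

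The largest FOXA1 differences in the PEO pair lay in distal windows downstream of the gene. The window at 14.7 kb (chr14:38049300-38050300) held 5.26, 5.76 and 5.13 FPKM in PEO1 and 0.756, 0.240 and 0.299 in PEO4. It held 1.59, 1.39 and 1.46 in PEA2 and 0.128, 0.125 and 0.192 in PEA1, with 0.139, 0.270 and 0.198 in A2780 and 0.152, 0.180 and 0.126 in CP70. Every PEA2 library lay above every PEA1 library, and every PEO4 library below every PEO1 library. PEO4 was 3.49 ± 0.276 below PEO1 on the log2 scale, in a window in the table through PEO1 alone, while the PEA pair was under the minimum mean of 1 FPKM and was not tested alone. The window at 11.95 kb (chr14:38052000-38053000) held 2.23, 2.36 and 2.90 FPKM in PEO1 and 0.291, 0.336 and 0.548 in PEO4, a log2 difference of -2.43 ± 0.312, and without PEO1 it would not be in the table. In PEA2 it held 1.98, 1.62 and 2.09 FPKM against 0.513, 0.872 and 0.767 in PEA1. CP70 held 1.29, 1.08 and 1.26 there and A2780 0.488, 0.653 and 0.512. In none of the 3 pairs did the libraries overlap at this window, and CP70 and PEA2 lay above their partners and PEO4 below its own. The next window, at 11.1 kb (chr14:38052900-38053900), held 5.46, 6.81 and 5.80 FPKM in PEO1 and 1.80, 1.73 and 2.09 in PEO4, lower by 1.63 on the log2 scale, and CP70 held 1.52, 1.68 and 1.59 against 0.715, 0.879 and 0.843 in A2780. At 1.15 kb (chr14:38062800-38063800), inside the gene, PEO1 held 5.06, 5.93 and 5.46 FPKM and PEO4 2.79, 3.60 and 3.39, without overlap. Over the 8 distal windows, the relative level of PEO4 was 0.347, the lowest of the lines beside PEA1 at 0.394, which it overlapped, against 0.809 in PEO1.

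GATA3 windows were lower in PEA2 than in PEA1. Its distal windows averaged 2.47 FPKM in PEA1 and 0.817 in PEA2, with 4.07 in PEO1, 2.30 in PEO4, 1.37 in CP70 and 1.14 in A2780. On the relative scale PEA1 was the highest line in distal windows at 1.45 and PEA2 the lowest at 0.387. The promoter window upstream of the start, chr10:8095500-8096500, held 7.30, 7.51 and 5.23 FPKM in PEA1 and 2.69, 1.73 and 2.40 in PEA2. It held 19.2, 20.5 and 19.5 in PEO1, 12.1, 12.3 and 12.9 in PEO4, 3.71, 2.63 and 1.93 in CP70, and 2.42, 2.84 and 1.77 in A2780. PEA2 lay 1.52 ± 0.227 below PEA1 (limma, adjusted p = 1.36e-10), or 1.89 after centring. The distal window at -1.55 kb (chr10:8094600-8095600) held 4.87, 4.86 and 3.45 FPKM in PEA1 and 1.54, 0.983 and 1.33 in PEA2, lower by 1.70 ± 0.232 (limma, adjusted p = 1.55e-12). The window at -4.25 kb held 4.74, 5.20 and 3.55 FPKM in PEA1 and 1.43, 1.45 and 1.82 in PEA2. The window over the start itself (chr10:8096400-8097400) was higher in PEO4, at 7.56, 6.05 and 6.77 FPKM, than in the other lines except PEO1, whose 4.86, 6.11 and 6.46 FPKM overlapped it. PEA1 held 3.49, 2.96 and 2.97 FPKM there and PEA2 2.09, 1.39 and 1.95. All 6 distal GATA3 windows tested in that pair were at least 2-fold lower in PEA2 at an adjusted p below 0.05, of which 2 were in the table through PEA1. Of all distal windows tested, 7.65% were lower in PEA2 at these limits. The 112 other windows of the same 5 Mb of chromosome 10 had a median log2 fold change of -1.34 against 0.31 over all windows, so neighbours moved with GATA3, and the part of copy number in this was not tested. In PEO1 and PEO4 against the other lines the upstream promoter window was 2.30 ± 0.133 higher (limma, adjusted p = 9.83e-24), and 1.08 after centring.

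**Figure D3:**
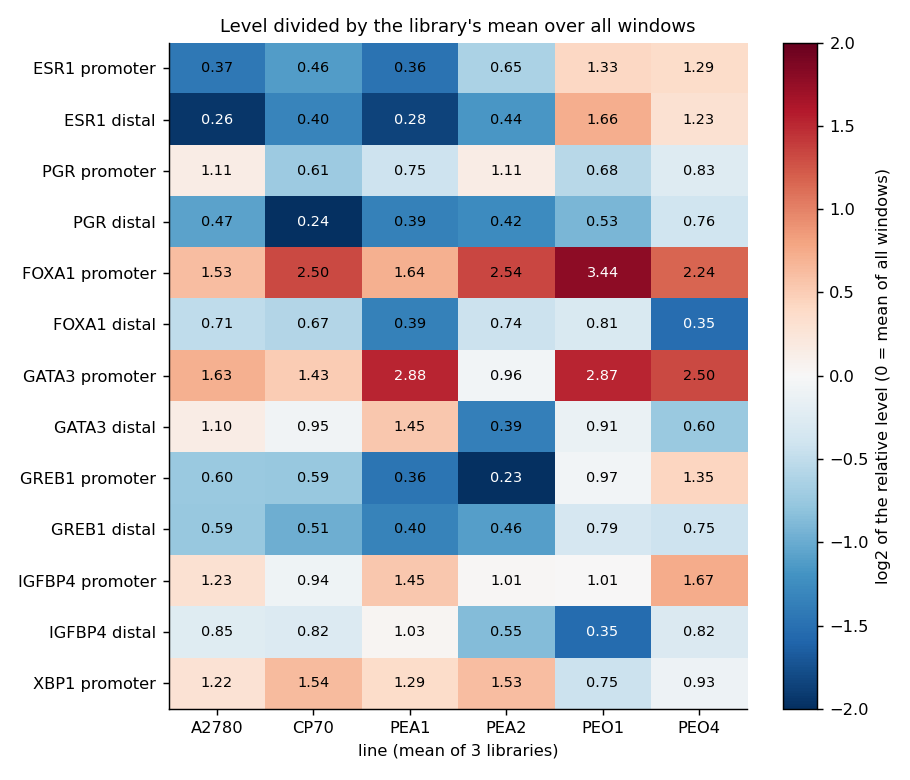
Relative level (FPKM divided by the library's mean over all windows) of each gene's promoter and distal windows, mean of 3 libraries per line, coloured by its log2, where 0 is the mean of all windows. Distal ESR1 reads 1.66 in PEO1 and 1.23 in PEO4 against 0.444 or less elsewhere, and distal GATA3 reads 1.45 in PEA1 against 0.387 in PEA2. Of the 23 ESR1 windows, 17 were in the table through PEO1 and PEO4 alone.

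GREB1, a target that also acts as a cofactor of the receptor, had a promoter ratio of PEO1 and PEO4 to the other lines of 7.59 as deposited, against 7.20 for ESR1, and of 2.61 on the relative scale, against 2.84 for ESR1. The window at 5.63 kb (chr2:11679300-11680300), over the start of another GREB1 transcript, held 4.45, 4.45 and 4.01 FPKM in PEO1 and 4.83, 6.05 and 4.73 in PEO4. The other lines held 0.610, 0.586 and 0.645 in A2780, 0.682, 0.778 and 1.05 in CP70, 0.545, 0.343 and 0.863 in PEA1, and 0.440, 0.405 and 0.577 in PEA2. The log2 difference of PEO1 and PEO4 from the others was 2.78 ± 0.157, and 1.55 after centring, below the limit of 2. The relative level was 1.35 in PEO4 and 0.966 in PEO1, and at most 0.598 in the other lines. An oestrogen response element, searched as GGTCA and TGACC with 3 unspecified bases between them, lay in a single member window, centred at -1.57 kb from the canonical GREB1 start (chr2:11672100-11673100). That window was picked for this motif and not by the rule for named windows. It held 5.56, 5.85 and 5.35 FPKM in PEO1 and 3.95, 2.98 and 2.34 in PEO4, and at most 0.769 in any other library. The log2 difference of PEO1 and PEO4 from the others was 3.12 ± 0.177, and 1.90 after centring, below the limit of 2. Both windows were in the table through PEO1 and PEO4 alone. In the second, PEO4 lay 0.86 ± 0.17 below PEO1 (limma, adjusted p = 2.95e-05). The element, in capitals with 40 bases on each side, lies at chr2:11672620-11672712 on the plus strand of GRCh37.
GREB1 response element: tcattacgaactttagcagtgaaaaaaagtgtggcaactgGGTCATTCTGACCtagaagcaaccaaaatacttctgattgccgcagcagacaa

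The last GREB1 window, 124 kb downstream of the start and beyond the gene (chr2:11798100-11799100), moved in opposite directions in the PEA and PEO pairs. It held 1.98, 1.85 and 2.22 FPKM in PEA2 and 0.256, 0.467 and 0.432 in PEA1, higher by 2.15 ± 0.294 (limma, adjusted p = 1.99e-12). It held 1.05, 1.78 and 1.44 in PEO4 and 4.76, 4.54 and 3.46 in PEO1, a log2 difference of -1.53 ± 0.209 in a window that would not be in the table without PEO1. CP70 held 0.833, 1.20 and 0.754 FPKM and A2780 0.471, 0.496 and 0.645. The gene NTSR2 lies nearby. The highest distal window of GREB1 was at -51.1 kb (chr2:11622600-11623600), with 6.17, 9.51 and 7.36 FPKM in PEO1, 5.87, 7.77 and 6.08 in PEO4 and 1.10 to 2.51 in the other lines. The window over the E2F6 start (chr2:11605500-11606500) held 12.6 to 16.4 FPKM in PEO1 and PEO4 and 1.97 to 5.83 in the others. The PEA2 call was lost without PEA1 replicate 1, where the difference was 1.94, and with median centring, where it was 1.78.

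IGFBP4, which binds insulin-like growth factors, and XBP1, a factor of the unfolded protein response, had no window that changed by more than 4-fold in a pair. The IGFBP4 promoter window (chr17:38599200-38600200) held 5.64, 6.67 and 6.87 FPKM in PEO4 and 4.15, 4.89 and 4.46 in PEO1, and 3.14, 2.24 and 2.01 in PEA1. PEA2 held 1.87, 2.37 and 2.09, CP70 0.909, 1.74 and 1.30, and A2780 1.41, 1.40 and 1.02. PEO4 lay above PEO1 by 0.50 (limma, adjusted p = 0.00288), and the relative levels ran from 0.939 in CP70 to 1.67 in PEO4. The next window (chr17:38600100-38601100), in an intron, held 2.67, 3.60 and 3.14 FPKM in PEO4 and 1.52, 1.66 and 1.45 in PEO1, a log2 difference of 0.97 in a window in the table through PEO4, while PEA1 held 1.92, 1.81 and 1.53. The XBP1 start window (chr22:29196000-29197000) held 4.96, 5.32 and 5.35 FPKM in PEO1, 6.39, 6.77 and 4.38 in PEO4, 3.68, 4.10 and 3.68 in PEA2, and 3.75, 3.46 and 2.54 in PEA1. CP70 held 4.62, 2.75 and 3.06 and A2780 2.01, 2.03 and 1.64. The promoter level of XBP1 in PEO1 and PEO4 was 1.54 times that of the other lines, the smallest such ratio of the members. In this window the log2 fold change was 0.86, and -0.37 after centring. Its relative promoter level was lower in PEO1 and PEO4, at 0.746 and 0.930, than in the other lines, at 1.22 to 1.54. In its other promoter window PEA2 was 1.07 ± 0.241 above PEA1 on the log2 scale, in a window in the table through PEA2, at 2.42, 3.18 and 2.13 FPKM against 1.38, 1.37 and 0.815.

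Calls needed a log2 fold change above 2 in size (a 4-fold change) and a Benjamini-Hochberg adjusted p below 0.001 over all windows tested, and the same counts were made at a 2-fold change and an adjusted p below 0.05. Between PEO1 and PEO4 and the other 4 lines, 59 member windows passed the minimum mean of 1 FPKM. At the stricter limits 29 were higher and 0 lower, and at the wider ones 46 were higher and 0 lower. For the counts of 0, limma gave 0 lower windows at an unadjusted p below 0.05 and edgeR called 0 lower. These limma counts are from the fit without centring. After median centring some members were lower in PEO1 and PEO4, past a 2-fold change but short of 4-fold. The GATA3 windows starting at chr10:8091000, 8091900 and 8092800 had log2 differences of -1.52, -1.11 and -1.16. The FOXA1 window at 11.95 kb had -1.18 and the XBP1 window starting at chr22:29195100 had -1.04. Of the promoter windows 7 of 13 were called higher, where 17.0% of all promoter windows tested were higher and 0.318% lower. Of the distal windows 21 of 44 were called, where 26.5% of all distal windows were higher and 0.631% lower. At the wider limits 67.9% of all promoter windows were higher and 1.63% lower, and 60.6% and 4.69% of distal windows, beside 11 of 13 and 33 of 44 members higher. Of the 29, 23 would not be in the table without PEO1 and PEO4, which leaves 2 ESR1 windows, 2 of GATA3, 1 of FOXA1 and 1 over the E2F6 start. ESR1 gave 19 of the 29 calls out of 20 windows tested, GREB1 6, of which 1 lay over the E2F6 start, GATA3 2, FOXA1 1 and PGR 1. Medians of the members were 2.16 in promoter and 1.97 in distal windows, against 1.37 and 1.29 over all windows. After median centring 10 of 59 member windows were called higher, 9 of them in ESR1, where 2.99% of all windows were higher and 5.01% lower, and with the 6 line means as the replicates 0 of 59 were called by limma, of which 42 were higher and 0 lower at an unadjusted p below 0.05.

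On the relative scale, every library of PEO1 and PEO4 lay above every other library in 4 of 13 promoter windows, 3 of ESR1 and 1 of GREB1, where 4.33% of all promoter windows did so. It did so in 14 of 52 distal windows, against 6.43% of all distal windows. Of these 9 lay in ESR1, 4 in GREB1 and 1 in PGR, and none in FOXA1, GATA3, IGFBP4 or XBP1. In the limma fit without centring, the other windows of the same 5 Mb as ESR1 also leaned this way. Their median log2 fold change was 1.89 over 96 windows, against 1.32 over all windows. Those of GREB1 had a median of 2.05. In ESR1 17 of 23 windows, in GREB1 9 of 15 and in PGR 3 of 5 were in the table through PEO1 and PEO4 alone. Of all members this held for 56.7%, against 30.9% of all windows, so the counts without overlap describe what the table was selected on.

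**Figure D4:**
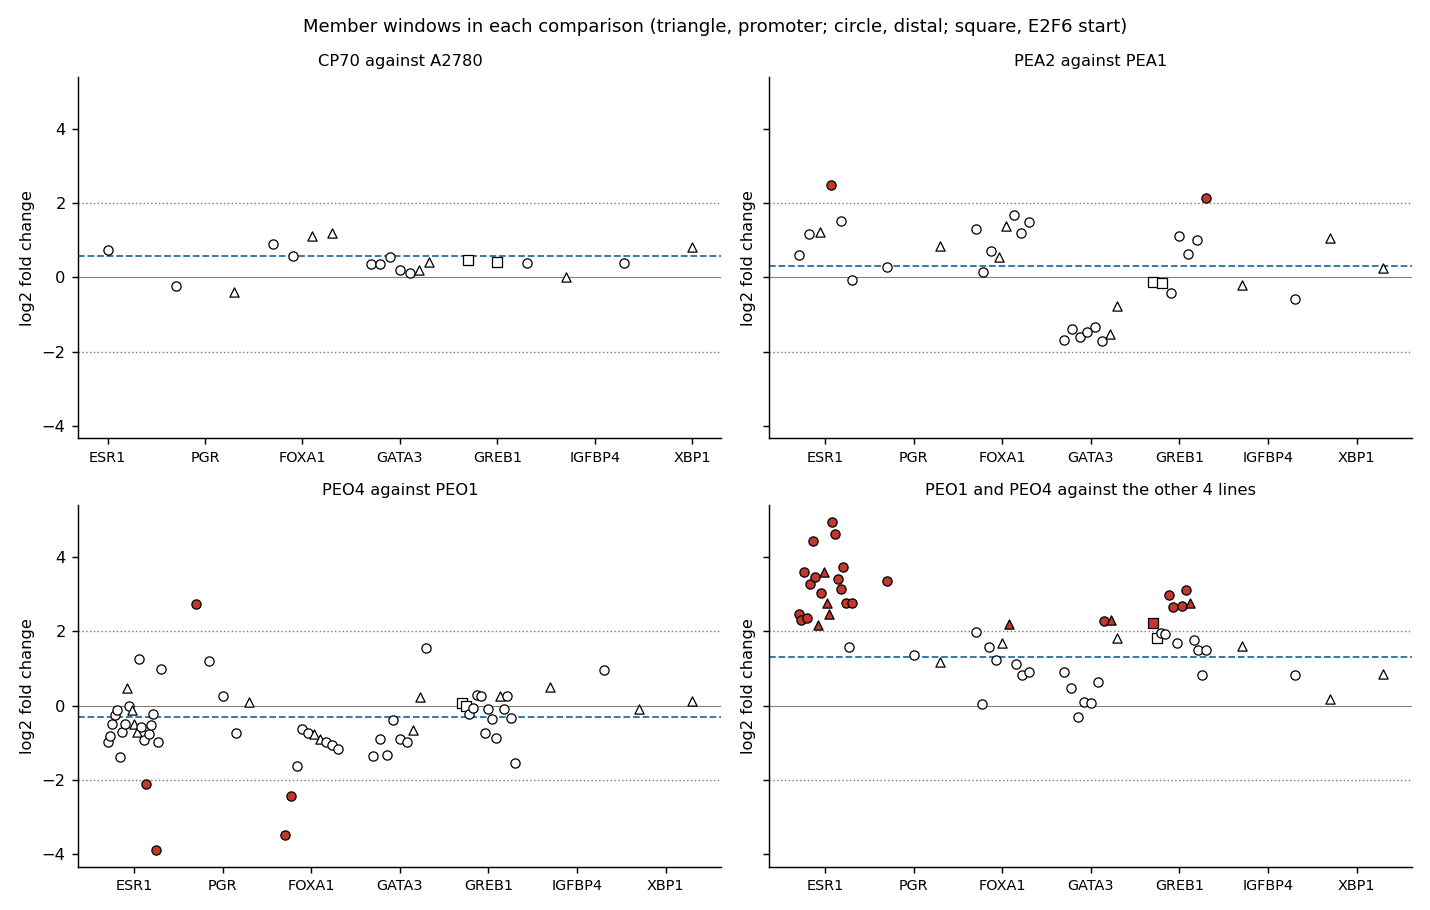
Log2 fold change of each member window tested, by gene, in the 4 comparisons, with triangles for promoters, circles for distal windows, squares for the E2F6 start and red for called windows. The dashed line is the median of all windows tested (0.59, 0.31, -0.30 and 1.32 in reading order) and dotted lines mark 2 and -2.

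Within the A2780 pair 20 member windows passed the minimum mean and 0 were called by limma or by edgeR, while 7 were higher and 0 lower at an unadjusted p below 0.05. At the wider limits 2 windows were higher, both FOXA1 promoters, and 0 lower. After centring the log2 fold changes of these FOXA1 windows were 0.62 and 0.54. Of all promoter windows 0.182% were called higher and 0.0720% lower, and 9.85% and 0.591% at the wider limits. Of all distal windows the shares were 0.742% and 0.748%, and 13.5% and 1.76% at the wider limits. In the PEA pair 35 were tested and 2 were called, both distal and higher in PEA2, the ESR1 window at 93.2 kb and the GREB1 window at 124 kb. Of all distal windows 16.6% were called higher and 1.79% lower, so 2 of 24 distal members lay below that share. Of all promoter windows 1.48% were called higher and 0.743% lower. At the wider limits 13 members were higher and 7 lower, and the 7 were all in GATA3, 6 distal windows and 1 promoter window. By limma at an unadjusted p below 0.05, 9 members were lower in PEA2, 8 in GATA3 and 1 in IGFBP4 (the intronic window, log2 difference -0.57), and edgeR called 3 lower. The shares over all windows there were 9.13% higher and 12.3% lower in promoters and 40.9% and 7.65% in distal windows. In the PEO pair 66 were tested, with 1 called higher, in PGR, and 4 called lower, 2 in ESR1 and 2 in FOXA1. None of these 5 would be in the table without the line in which it was higher. The calls were all distal, among 51 distal members tested, where 3.74% of all distal windows were called higher and 7.99% lower. In promoters 0.483% were called higher and 0.949% lower, and 0 of 13 members were called by limma, with 2 higher and 5 lower at an unadjusted p below 0.05. At the wider limits 4 members were higher and 11 lower, and 5 of the 8 distal FOXA1 windows were among the 11. The shares were then 5.70% higher and 8.85% lower in promoters and 11.4% and 30.5% in distal windows.

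**Figure D5:**
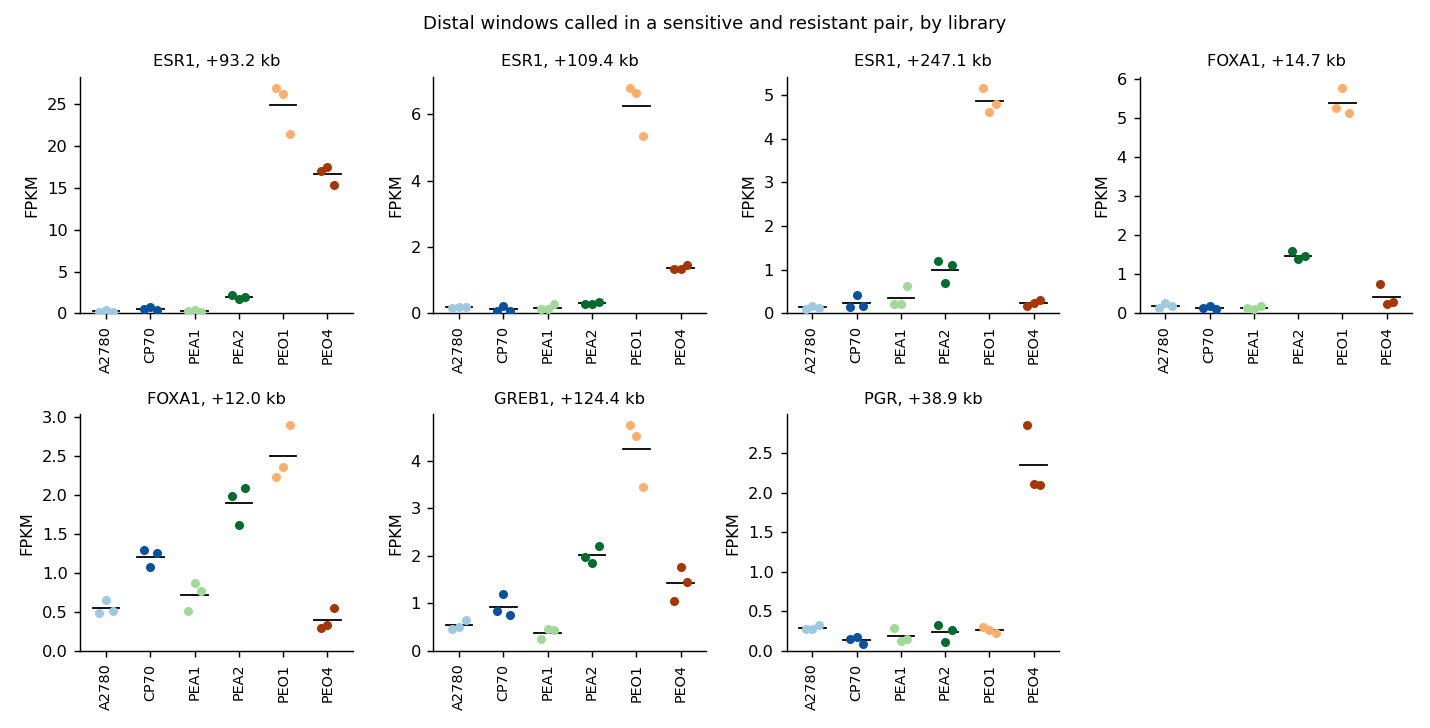
FPKM in each library at the 7 distal windows called in a sensitive and resistant pair, with a point per library and a bar for the mean of each line, titled by gene and distance from the start in kb. The FOXA1 window at 14.7 kb reads 5.13 to 5.76 in PEO1 and 0.240 to 0.756 in PEO4, and the PGR window at 38.9 kb reads 2.09 to 2.85 in PEO4 and 0.304 or less in PEO1.

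Whether a pair's change differed from that of another pair was tested by subtracting their log2 fold changes in limma. Between the PEA and PEO pairs 13 of 63 member windows tested were called, against 26.6% of all windows, and 10 after centring, against 24.5%. Between the A2780 and PEA pairs 2 of 25 were called, against 12.8%. After centring 0 were called by limma, again against 12.8% of all windows, and 9 were higher and 4 lower at an unadjusted p below 0.05. Between the A2780 and PEO pairs 11 of 63 were called, against 8.12%, and 4 after centring, against 6.28%. The FOXA1 window at 14.7 kb had the largest difference between the PEA and PEO pairs among the named windows, 6.17 ± 0.429, followed by the ESR1 window at 247 kb at 5.25 ± 0.451, both in the table through PEO1 alone.

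The other genes of the oestrogen pathway were read at their canonical starts, from a list of 58 genes of which 51 had a start window in the table. The genes without a window, among them the second receptor ESR2, the aromatase CYP19A1 and the ligand AREG, were not analysed here. Against the other 4 lines, 18 of 50 tested starts were higher in PEO1 and PEO4 and 0 lower, where 17.0% of all promoter windows were higher and 0.318% lower, with a median of 1.65 against 1.37. By role, these were 2 of 4 receptors and enzymes, 3 of 10 coregulators, 5 of 8 partner factors and 8 of 28 targets. These counts are from the fit without centring. Starts that were in the table through PEO1 and PEO4 alone are not counted apart. In CP70 0 of 44 starts were called by limma, where 0.182% of all promoter windows were higher and 0.0720% lower, with 7 higher and 0 lower at the wider limits and 31 higher and 0 lower at an unadjusted p below 0.05. In PEA2 3 of 50 were called, all higher, where 1.48% of all promoter windows were higher and 0.743% lower. At the wider limits 7 were higher and 6 lower, where 9.13% and 12.3% of all promoter windows were. The 3 called were the partner factor TBX3, at 0.445 ± 0.113 FPKM in PEA1 and 6.38 ± 1.43 in PEA2, the target AGR2, at 0.260 ± 0.191 and 3.60 ± 0.359, and the target HSPB8, at 0.815 ± 0.114 and 5.17 ± 0.664. In PEO4 TBX3 was the single start called, falling from 35.9 ± 1.46 FPKM in PEO1 to 7.49 ± 1.02, a log2 fold change of -2.25, where 0.483% of all promoter windows were higher and 0.949% lower. The start of TBX3 was called in both pairs, with opposite signs, and the difference between these pairs was not tested for it. PRLR, the prolactin receptor, rose from 1.41 to 5.45 FPKM in PEA2 (limma log2 fold change 1.88, adjusted p = 2.55e-15), while PDZK1, a scaffold protein, fell from 3.80 to 1.37 (log2 fold change -1.41).

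Genes whose distal level followed a member over the lines were sought among 4428 genes with at least 5 distal windows, by Pearson's r over 6 line means of the log2 relative level. For ESR1 the closest were MAP7 (0.995), ALDH8A1 (0.988) and PPP1R14C (0.984), all on chromosome 6 as ESR1 is, and 0.949% of the genes exceeded 0.9. SORCS1 (0.995) and ATG5 (0.982) were closest to GREB1, EFR3B (0.981) to FOXA1 and ACLY (0.971) to GATA3. Between members, r was 0.83 for ESR1 and GREB1, 0.59 for ESR1 and PGR, -0.02 for ESR1 and FOXA1, and -0.35 for ESR1 and GATA3. The 6 points share their libraries and their depth, and PEO1 and PEO4 come from a single patient. Many of the windows were also in the table through PEO1 and PEO4 alone. This was so for 73.9% of the windows of ESR1, 60% of GREB1 and of PGR, 50% of FOXA1 and 30% of GATA3. Over all windows the share was 30.9%. These values of r therefore describe in part what the table was selected on.

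The letters of the forkhead motif TGTTTAC were in 9 of 52 distal member windows (17.3%), against 12.8% of all distal windows, and 8 of the 11 member windows with them lay in ESR1. The GATA letters AGATAA were in 27 of 52 (51.9%), against 39.1%. The oestrogen response element was in 1 of 67 member windows and in 0.140% of all windows. The motifs were counted on both strands.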

How the data were processed

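ATAC-seq reads of 18 libraries, 3 from each of 6 lines, had been processed by the authors: duplicates were removed with Picard, reads aligned uniquely to hg19 with Bowtie2, blacklisted and mitochondrial reads dropped, and reads counted in 1 kb windows with featureCounts. Versions were not given in the sources used here. The authors deposited FPKM, made with edgeR, which equals RPM divided by a constant because windows have equal length (1001 bases, every 900 bases, so neighbours share 101). The window numbering fitted GRCh37 at 23 of 23 chromosome steps. Whole reads were recovered from the deposited RPM-type values in all 18 libraries, within 0.01 read. Library totals ran from 8963079 to 60435027 reads, and replicate libraries differed by a chi-square of 1.07 to 2.10 per window, with none identical. Intervals cover counting error only.

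Groups came from the sample labels. The members and gene lists were chosen with earlier results of these data known. Values were transformed to log2(FPKM + 0.1), so fold changes of low windows are understated, and the windows whose average exceeded 1 FPKM in the libraries compared were fitted in R 4.3.3 by limma 3.58.1, using eBayes with its trend option, over the whole table, with Benjamini-Hochberg adjustment. The study weighted counts with voom, which needs counts, so the trend took its place. The resistant line of each pair was compared with its partner, and PEO1 and PEO4 with the other 4 lines, where the error is the spread between libraries and not between lines. 3 libraries against 3 cannot reach an exact permutation p below 0.1, so gene levels carry no test. The median log2 fold change of all windows tested was 0.59 in CP70, 0.31 in PEA2, -0.30 in PEO4 and 1.32 in the last comparison, and centring subtracts each library's median. Named windows were each promoter window, the 2 highest distal windows of a gene, and up to 3 called distal windows per gene and pair, largest first. Alternatives were other scalings, pseudocounts, minimum values, limits and replicates left out, edgeR 4.0.16 on the recovered reads with TMM, and removal of the median of the 5 Mb bin. The fits were tested on simulated data. Annotation and sequence are of GRCh37. The labels do not pair the numbered replicates. Deviations of same-numbered libraries of a pair correlated from -0.41 to 0.04. In the PEO pair they correlated at 0.016, 0.045 and 0.038, and libraries of unlike number at -0.0041 or less. These values do not settle whether libraries were paired.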

Additional observations from a re-analysis of the deposited data

Results flagged for a closer look

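Several windows changed differently in 2 of the pairs by a test of the difference itself (limma, log2 scale, positive when the first pair named changed upward relative to the second). Between the PEA and the PEO pair, these were the ESR1 windows at 93.2, 109 and 247 kb, with differences of 3.07, 2.68 and 5.25, the GREB1 window at 124 kb with 3.68, the FOXA1 windows at 14.7 and 11.95 kb with 6.17 and 3.73, and the FOXA1 promoter window upstream of the start with 2.26. Between the A2780 and the PEO pair, they were the ESR1 window at 247 kb with 4.35, the GREB1 window at 124 kb with 2.21, the FOXA1 windows at 14.7, 11.95 and 11.1 kb with 3.24, 3.44 and 2.53, and the FOXA1 promoter window with 2.08. Between the A2780 and the PEA pair, the GATA3 window at -4.25 kb gave 2.01, and 1.78 after centring, which misses the limit of 2. After each library was centred on its median, 5 of the 7 named differences between the PEA and PEO pairs still passed, at 2.27 and 4.45 in ESR1, 2.88 in GREB1, and 5.37 and 2.93 in FOXA1, and the IGFBP4 window at 0.898 kb passed with -2.34. Comparisons of 2 pairs share no libraries, but each pair enters 2 of the 3 tests. The ESR1 windows at 109 and 247 kb, the GREB1 window at 124 kb and the FOXA1 windows at 14.7, 11.95 and 11.1 kb would not be in the table without PEO1, nor the IGFBP4 window without PEO4, so their differences describe what the table was selected on.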

How the results depend on the processing

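The ratio of PEO1 and PEO4 to the other lines (log2 of the gene levels) reversed when divided by the library mean over all windows at the PGR promoter (-0.24), FOXA1 distal (-0.12), GATA3 distal (-0.37), IGFBP4 distal (-0.49) and XBP1 promoter (-0.74) windows. The 29 windows higher in PEO1 and PEO4 became 10 after median centring, 11 after quantile normalization, 12 by edgeR, 3 after removal of the 5 Mb median, 6 at a minimum mean of 5 FPKM, 0 with the 6 line means and 46 at the wider limits, and 28 to 31 with a library left out. For CP70, 2 were higher at the wider limits. For PEA2, the 2 higher became 13 at the wider limits, 0 with a pseudocount of 0.5, 6 without a filter, 1 after centring, 0 after quantile normalization and 1 after bin removal, and 0 to 3 with a library left out, being 1 without PEA2 replicate 1 or 2 and 0 without replicate 3. Its 0 lower became 7 at the wider limits, 2 after centring, 4 after quantile normalization and 3 by edgeR. No member passed a minimum of 5 FPKM. With a PEA2 library left out, the higher windows that were lost fell under the minimum mean of 1 FPKM and were not tested. For PEO4, the 1 higher became 4 at the wider limits, 0 with a pseudocount of 0.5, 0 at 5 FPKM, 2 after bin removal, 2 by edgeR, and 0 to 1 with a library left out (0 without PEO4 replicate 1). The 4 lower became 11 at the wider limits, 2 with a pseudocount of 0.5, 0 at 5 FPKM and 2 after bin removal. Without PEO4 replicate 1 the PGR window called higher also fell under the minimum mean of 1 FPKM. Of the named differences between pairs, 0 passed after centring for A2780 against PEA and 3 for A2780 against PEO. The replicate block gave 29 windows higher in PEO1 and PEO4, 2 in PEA2 and 1 in PEO4, and 4 lower in PEO4, with no count changed. The labels do not say that the replicate numbers pair the samples. Apart from the windows that fell under the minimum mean, the cause of these changes was not tested. The depth of PEO1, the shallowest line, limits low windows.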
